A study of Mus musculus with 23 samples.

Results

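Cxcl1, Cxcl2, Cxcl3, Cxcl5 and Ppbp encode small secreted CXC chemokines that draw neutrophils out of the blood. They are described here with Csf3, which encodes the granulocyte growth factor G-CSF, and Cxcr2, which encodes their main receptor on neutrophils. The 7 genes were picked by symbol from the 55401 genes of the deposited count table, all 7 were found there, and all 7 passed the filter on low counts. Expression was measured in 23 bulk libraries of mouse tumours from 12 groups, with 2 libraries in each of 11 groups and 1 in the last.

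All groups shared the same host and tumour. Male C57/BL6 mice of 8 to 10 weeks carried flank tumours of TC2Ras cells, a TRAMP-C2 prostate adenocarcinoma line given an activated H-ras by lentivirus. Plasmid, at 10 µg per muscle, was delivered to the tibialis anterior of the leg with ultrasound and microbubbles. The control plasmid (pTSTA-ctrl, here EV) held the GAL4 and VP16 elements alone, and the other (pTSTA-IL27pepL, here IL27v) added IL-27 joined by a linker to a short peptide, pepL. Under each plasmid, tumour was held ex vivo in media or with 1 of 5 additions: cabozantinib (an inhibitor of several receptor kinases), docetaxel (a taxane that stabilises microtubules), a PD-L1 antibody (anti-PD-L1), IL-27, and cabozantinib together with IL-27. The study's own terms were hot for IL27v tumours and cold for EV tumours. No dose or time of these exposures is stated in the labels. The group with 1 library is IL27v with ex vivo IL-27, numbered replicate 2.

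ELR-type CXC chemokines are made by epithelial cells, fibroblasts, endothelium and macrophages after signals such as IL-1 and TNF, which act through NF-kB. They bind CXCR2 on neutrophils and steer these cells along a gradient into the tissue. Ppbp, the precursor of platelet basic protein, is stored in platelets and also made by myeloid cells. G-CSF acts on the bone marrow, where it raises the output of neutrophils. In prostate tumours, as in other solid tumours, neutrophils and related myeloid cells are studied as suppressors of T cells.

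Library totals ranged from 47641781 to 83088346 counts. Levels are given in CPM, counts relative to the library total after TMM scaling, and 1 CPM stood for 36.3 to 86.5 counts. The tumour line's own markers were partly absent: the prostate genes Pbsn and Hoxb13 were at 0 in 23 and 21 libraries, while Krt8 and Hras were present. The libraries also differed in skeletal muscle transcripts. The sum of 13 muscle genes was at most 18.4 CPM in 9 EV libraries (set A), 483 to 710 CPM in 5 libraries that also held at least 5 CPM of the neutrophil granule gene Ngp (set B), and 620 to 974 CPM with less Ngp in 8 IL27v libraries (set C). Set B holds EV anti-PD-L1 2, both EV cabozantinib with IL-27 libraries and both IL27v media libraries. IL27v docetaxel 1 was left out of the 3 sets by hand. It had 28.7 CPM of muscle genes, under the 100 CPM that separates set C from set A. The ribosomal RNA gene CT010467.1 held 27.3% of its counts.

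Cxcl5, Ppbp, Cxcl3, Cxcl1 and Cxcl2 lie in this order on the plus strand of 1 stretch of 146.6 kb of chromosome 5 in GRCm38. The platelet factor 4 gene Pf4 lies between Ppbp and Cxcl3, and Cxcl15 between Cxcl3 and Cxcl1. Gene bodies run from 90759360 to 90761624 for Cxcl5 (ENSMUSG00000029371), 90768518 to 90770063 for Ppbp (ENSMUSG00000029372) and 90786103 to 90789600 for Cxcl3 (ENSMUSG00000029379). Cxcl1 (ENSMUSG00000029380) runs from 90891241 to 90893115 and Cxcl2 (ENSMUSG00000058427) from 90903871 to 90905938. Csf3 (ENSMUSG00000038067) lies at 98701263 to 98703629 on chromosome 11, and Cxcr2 (ENSMUSG00000026180) at 74153989 to 74161246 on chromosome 1. None of the 7 overlaps another annotated gene.

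The 120 bases before the RefSeq start are shown for 4 promoters of the chemokine stretch, because 3 of these genes rose with IL27v and the fourth, Ppbp, did not pass the test. Sequences are from RefSeq for GRCm38.p6, plus strand, 5′ to 3′. Capitals mark matches to GGGA and TTCC with any 2 bases between them, an NF-kB type site, on either strand, to TATAAA, and to ATAAAAGG, a stretch chosen after the promoters had been read. The RefSeq start equals the gene start above for Ppbp and lies 4, 28 and 2 bases from it for Cxcl1, Cxcl2 and Cxcl3.
Cxcl1 (chr5:90891125-90891244): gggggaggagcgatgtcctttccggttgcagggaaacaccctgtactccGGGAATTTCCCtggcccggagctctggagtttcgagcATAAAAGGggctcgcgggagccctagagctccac
Cxcl2 (chr5:90903779-90903898): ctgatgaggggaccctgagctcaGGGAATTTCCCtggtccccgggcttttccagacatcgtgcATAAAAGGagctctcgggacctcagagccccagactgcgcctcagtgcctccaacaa
Cxcl3 (chr5:90785981-90786100): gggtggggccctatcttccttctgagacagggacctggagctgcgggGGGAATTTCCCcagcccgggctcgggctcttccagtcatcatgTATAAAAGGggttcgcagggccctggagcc
Ppbp (chr5:90768398-90768517): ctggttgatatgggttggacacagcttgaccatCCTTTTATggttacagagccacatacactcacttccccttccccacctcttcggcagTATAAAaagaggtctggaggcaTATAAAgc
Cxcl1, Cxcl2 and Cxcl3 held the same match, GGGAATTTCC, beginning 71, 97 and 73 bases before the start, and it overlaps its own match on the other strand by all but 1 base. That NF-kB type pattern occurs in 1.47% of 32851 RefSeq promoter windows, each of 300 bases from 250 before to 50 after the start. In its window of that size the Ppbp promoter had no match to it. ATAAAAGG, found in 1.76% of windows, began 34, 57 and 29 bases before the start of Cxcl1, Cxcl2 and Cxcl3, and lay on the reverse strand of Ppbp. TATAAA, found in 13.6% of windows, was matched in Cxcl3, where it overlaps ATAAAAGG, and at 2 places in Ppbp. The Cxcr2 window had no match to any of the 3, and Cxcl5 and Csf3 were not searched.

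Per kilobase of transcript, the only scale here on which genes are compared with each other, Cxcl1 had the highest mean level over the 23 libraries, at 110.5 CPM per kb of its longest coding transcript. Cxcl3 followed at 52.1 CPM per kb, Cxcl5 at 26.2, Ppbp at 26.0 and Cxcl2 at 11.9. With the shortest Cxcl2 transcript that gene reached 19.9 CPM per kb. Csf3 (2.10 CPM per kb) and Cxcr2 (0.115 CPM per kb) were far lower. The receptor transcript was close to the detection limit.

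Of the 7 genes, 4 (Cxcl1, Cxcl2, Cxcl3 and Cxcl5) rose with the IL-27 vector when the 6 ex vivo conditions were averaged. The rise was largest for Cxcl5, the epithelial and fibroblast chemokine first known as LIX, and was between 3 and 5 times for the others. Ppbp and Csf3 did not pass the test, and Cxcr2 could not be fitted. Across all genes, 2.95% of the 24440 tested were called, 2.28% higher with IL27v and 0.671% lower (558 and 164 genes, and 536 and 466 with a correction for GC content), and the median log2 fold change of all genes was 0.01.

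**Figure D1:**
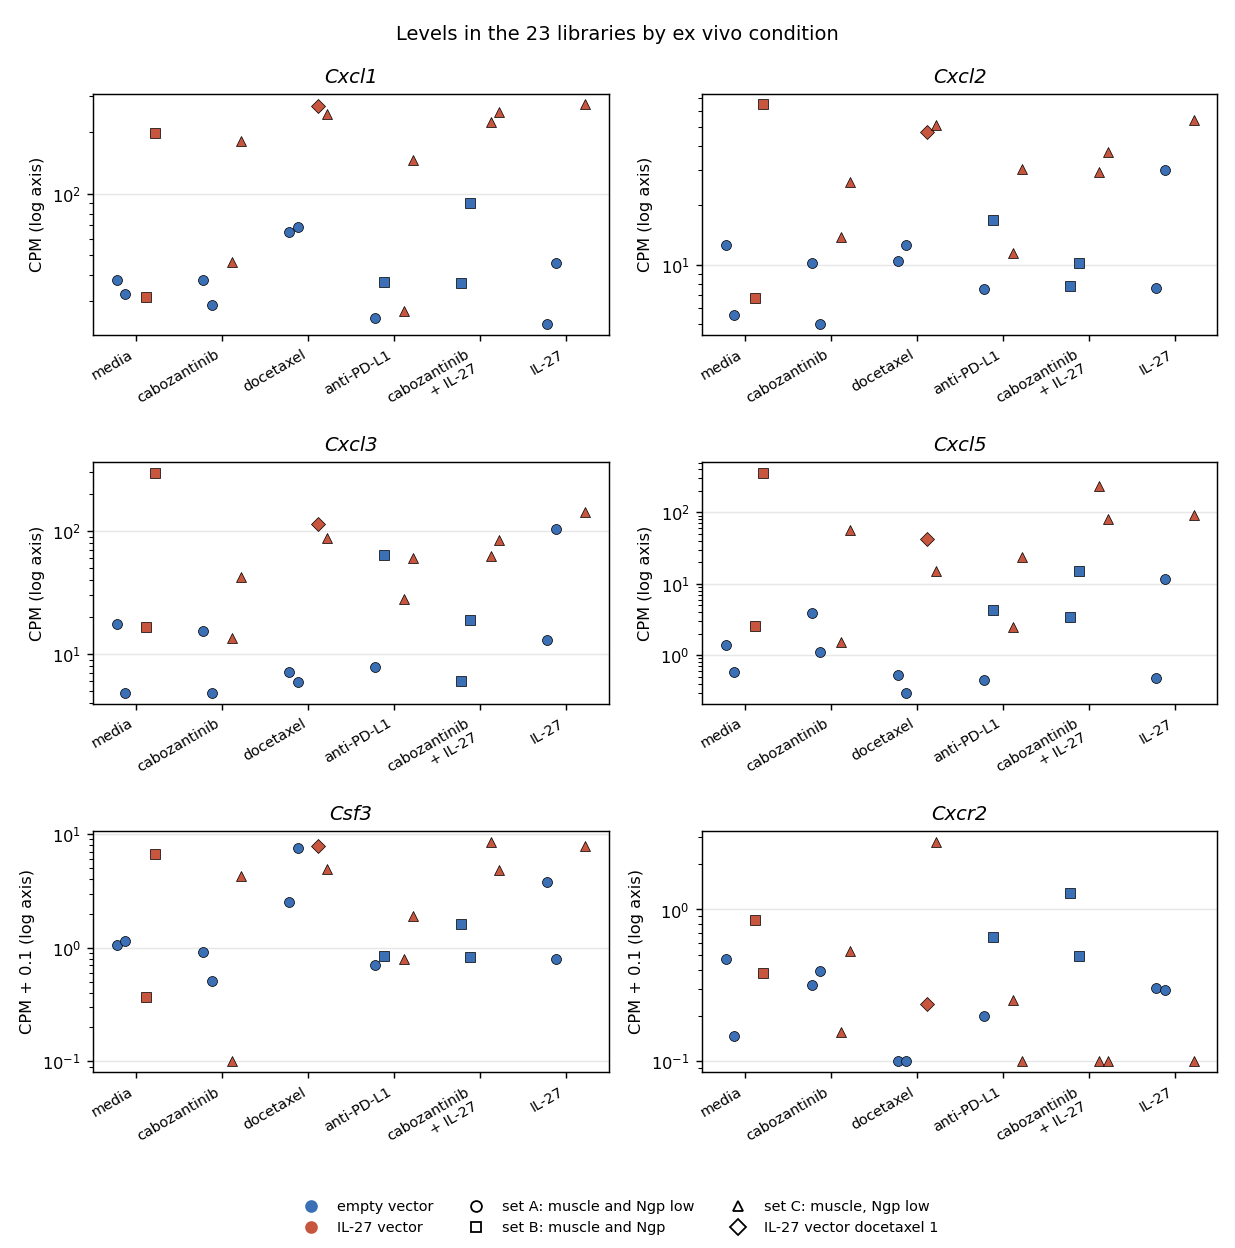
Level of Cxcl1, Cxcl2, Cxcl3, Cxcl5, Csf3 and Cxcr2 in each of the 23 libraries (CPM on a log axis, with 0.1 added for Csf3 and Cxcr2) by ex vivo condition, coloured by vector and with a marker for the set of libraries. For Cxcl1, 8 of the 11 IL27v libraries lie above all 12 EV libraries, and 3 lie among them.

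Cxcl1, also called KC, is an early neutrophil chemokine of inflamed mouse tissue. With EV it stood at 38.0 and 32.3 CPM in media, 37.8 and 28.7 with cabozantinib, 65.4 and 69.0 with docetaxel, 24.7 and 36.9 with anti-PD-L1, 36.7 and 90.3 with cabozantinib and IL-27, and 23.1 and 45.9 with IL-27. With IL27v it stood at 31.2 and 198 CPM in media, 46.6 and 181 with cabozantinib, 270 and 246 with docetaxel, 26.7 and 146 with anti-PD-L1, 225 and 251 with cabozantinib and IL-27, and 273 in the single IL-27 library. The groups overlapped through 3 IL27v libraries, the first replicates of media, cabozantinib and anti-PD-L1, which lay between 26.7 and 46.6 CPM while the other 8 lay at 146 or above. The mean was 44.1 ± 20.4 CPM with EV (SD, n = 12) and 172 ± 96.1 CPM with IL27v (SD, n = 11). The log2 fold change of IL27v over EV was 1.97 ± 0.33 (SE), with an adjusted p of 0.0046 by edgeR's quasi-likelihood test with Benjamini-Hochberg adjustment.

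The group means of Cxcl1 were ordered by vector: each of the 6 IL27v means, from 86.1 CPM with anti-PD-L1 to 273 with IL-27, was above each of the 6 EV means, from 30.8 CPM with anti-PD-L1 to 67.2 with docetaxel. Neighbouring groups in that order overlapped, apart from the single IL-27 library at the top and a gap between IL27v cabozantinib with IL-27 (238 ± 18.5 CPM, SD, n = 2) and IL27v media, whose higher library was at 198 CPM. The EV docetaxel libraries lay close together at 67.2 ± 2.58 CPM (SD, n = 2) and above 9 of the 10 other EV libraries.

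Cxcl2, or MIP-2, a chemokine of activated macrophages, was lower in level but had a like order of libraries. EV libraries held 12.6 and 5.59 CPM in media, 10.2 and 5.01 with cabozantinib, 10.4 and 12.6 with docetaxel, 7.52 and 16.8 with anti-PD-L1, 7.83 and 10.2 with cabozantinib and IL-27, and 7.65 and 30.05 with IL-27. IL27v libraries held 6.81 and 64.6 CPM in media, 13.9 and 26.1 with cabozantinib, 46.9 and 50.9 with docetaxel, 11.5 and 30.4 with anti-PD-L1, 29.6 and 37.2 with cabozantinib and IL-27, and 54.2 with IL-27. The groups overlapped: 6 of 11 IL27v libraries lay above the highest EV library, EV IL-27 2, and the same 3 first replicates were the lowest. Cxcl2 rose by 1.61 ± 0.34 on the log2 scale (SE), with an edgeR adjusted p of 0.015.

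Cxcl3, a close relative of Cxcl1 and Cxcl2, varied more from library to library. EV libraries held 17.7 and 4.88 CPM in media, 15.4 and 4.86 with cabozantinib, 7.16 and 5.95 with docetaxel, 7.79 and 64.3 with anti-PD-L1, 6.10 and 18.8 with cabozantinib and IL-27, and 13.1 and 104 with IL-27. IL27v libraries held 16.6 and 295 CPM in media, 13.5 and 42.4 with cabozantinib, 115 and 87.1 with docetaxel, 28.0 and 60.2 with anti-PD-L1, 62.8 and 84.4 with cabozantinib and IL-27, and 142 with IL-27. Only 3 of 11 IL27v libraries exceeded the highest EV library, but all 11 were above the EV median of 10.5 CPM and 7 of 12 EV libraries were below the lowest IL27v library. Cxcl3 rose by 2.22 ± 0.49 on the log2 scale (SE), with an edgeR adjusted p of 0.021. This call was lost when any 1 of 5 libraries was left out (EV media 2, EV cabozantinib 2, EV docetaxel 2, EV cabozantinib with IL-27 1 or IL27v media 2), with an adjusted p of 0.050 to 0.059 and a log2 fold change of 1.68 to 2.15.

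Cxcl5 had the widest range. EV libraries held 1.40 and 0.589 CPM in media, 3.96 and 1.11 with cabozantinib, 0.536 and 0.298 with docetaxel, 0.443 and 4.26 with anti-PD-L1, 3.43 and 15.3 with cabozantinib and IL-27, and 0.477 and 11.7 with IL-27. IL27v libraries held 2.56 and 355 CPM in media, 1.51 and 56.9 with cabozantinib, 42.0 and 14.9 with docetaxel, 2.47 and 23.8 with anti-PD-L1, 235 and 80.9 with cabozantinib and IL-27, and 91.5 with IL-27. Again 3 IL27v first replicates stayed low, at 1.51 to 2.56 CPM, and 7 of 11 IL27v libraries were above the highest EV library. Means were 3.63 ± 4.89 CPM with EV (SD, n = 12) and 82.4 ± 113 CPM with IL27v (SD, n = 11). The log2 fold change was 4.59 ± 0.82 (SE), with an edgeR adjusted p of 0.0056.

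In bulk tissue, fewer cells of a type and less RNA per cell cannot be told apart. Nothing in the labels says that replicates came from separate animals, so a p-value here covers the spread between libraries, which may be technical.

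Within single ex vivo conditions edgeR made no call for the 4 genes that rose. These genes were picked because the mean of the same 6 differences was called. Their signs and unadjusted p here are therefore a description and no further support. For Cxcl1, Cxcl2, Cxcl3 and Cxcl5 in the 6 conditions, 24 of 24 log2 fold changes were positive, from 0.29 to 7.49, and 0 of 24 were called by edgeR (adjusted p 0.24 to 1). At an unadjusted p under 0.05, 14 of the 24 passed, and DESeq2 called 4 of them, Cxcl3 and Cxcl5 in media and in docetaxel. The share of all genes that edgeR called either way was 0% in media, cabozantinib, anti-PD-L1 and IL-27, 0.27% in docetaxel and 0.00409% in cabozantinib with IL-27. At an unadjusted p under 0.05 the share of all genes was 9.04% in media, 5.46% in cabozantinib, 10.0% in docetaxel, 3.41% in anti-PD-L1, 6.08% in cabozantinib with IL-27 and 2.67% in IL-27. DESeq2 called 2.57% of the 33123 genes with any count in media and 2.71% in docetaxel. Each condition rests on 2 against 2 libraries, and IL-27 on 1 against 2.

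The widest estimates were in media and docetaxel. In media Cxcl5 differed by 7.49 ± 2.25 and Cxcl3 by 3.79 ± 1.27 on the log2 scale (SE), and both values come mostly from IL27v media 2. Without that library the media differences of Cxcl1 and Cxcl2 were −0.17 and −0.41. In docetaxel, and in cabozantinib with IL-27, both IL27v libraries were above both EV libraries for all 4 genes. The share of all genes with such a separation is not given here, and these 4 were picked as higher with IL27v. The docetaxel differences were 6.08 ± 2.15 for Cxcl5 and 3.95 ± 1.28 for Cxcl3. With anti-PD-L1 the differences were smallest, at 0.29 ± 1.13 for Cxcl3 and 0.79 ± 0.80 for Cxcl2. Without IL27v anti-PD-L1 2 those of Cxcl1, Cxcl2 and Cxcl3 were −0.20, −0.08 and −0.36, and without EV anti-PD-L1 1 that of Cxcl3 was −0.54. Without IL27v cabozantinib 2 the Cxcl5 difference under cabozantinib was −0.75.

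**Figure D2:**
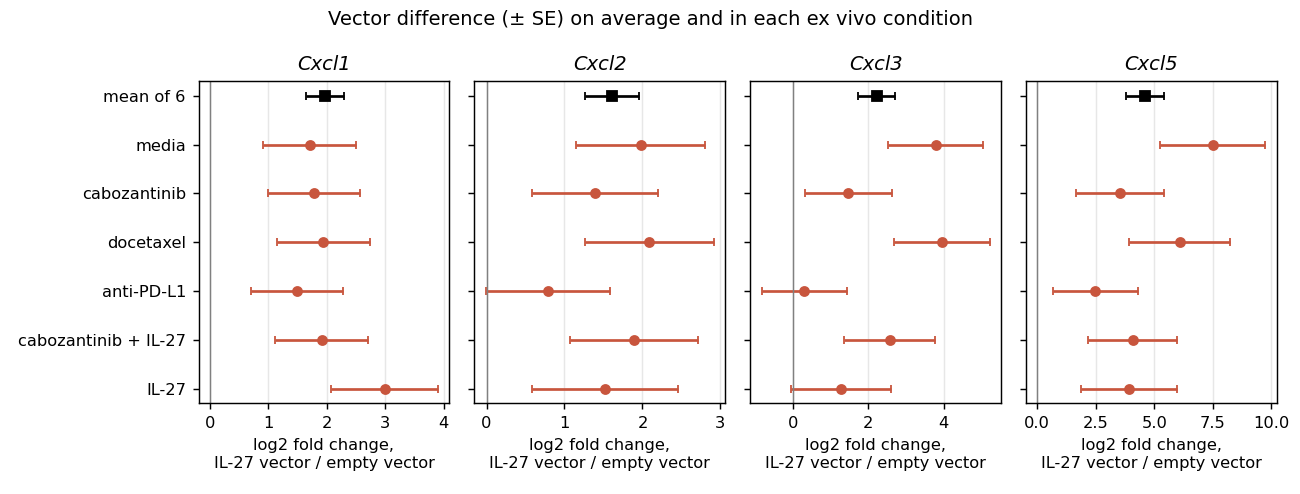
Log2 fold change of IL27v over EV with its standard error for Cxcl1, Cxcl2, Cxcl3 and Cxcl5, as the mean of the 6 conditions (black square) and in each condition (red circles). All 24 single-condition estimates are above 0, from 0.29 to 7.49, and the 4 genes were picked by the mean of these same estimates.

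Muscle transcripts moved with the vector as well: 13 of 13 muscle genes rose by edgeR, against 2.28% of all genes. The muscle sum was 1.27 to 563 CPM with EV and 28.7 to 974 CPM with IL27v. In the 3 EV libraries with high muscle sums Cxcl1 was at 36.7, 36.9 and 90.3 CPM, against 40.5 ± 16.7 CPM in the 9 EV libraries without (SD, n = 9), and medians of Cxcl2 were 10.2 CPM in both. For Cxcl5 and Cxcl3 the medians were higher in the 3, at 4.26 against 0.589 CPM and 18.8 against 7.79 CPM. The Ppbp median was lower in the 3, at 8.25 against 26.05 CPM. In IL27v docetaxel 1, the IL27v library with the least muscle, Cxcl1 was at 270 CPM. With the log2 of the muscle sum plus 1 as a further term in an additive edgeR model, 0 of the 4 genes were called. All 4 had an unadjusted p under 0.05. The log2 fold changes were 1.83 ± 0.52 for Cxcl1 (adjusted p 0.16), 1.49 ± 0.53 for Cxcl2 (0.23), 1.84 ± 0.86 for Cxcl3 (0.37) and 4.01 ± 1.28 for Cxcl5 (0.19). In that model 2 genes were called in all. A further edgeR model had the 3 sets as a term and left out IL27v docetaxel 1. Set A then held EV libraries alone and set C IL27v libraries alone. In it no gene was called, and 1 of the 4 (Cxcl5) had an unadjusted p under 0.05. The log2 fold changes were 1.15 ± 0.99 for Cxcl1 and 1.40 ± 1.01 for Cxcl2. They were 2.32 ± 1.57 for Cxcl3 and 5.88 ± 2.33 for Cxcl5 (edgeR adjusted p 1 for each of the 4). Without IL27v docetaxel 1, set and vector can be told apart only within set B. There Cxcl1 was at 36.7, 36.9 and 90.3 CPM with EV and 31.2 and 198 CPM with IL27v.

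Some keratinocyte genes also moved with the vector: 4 of 9 (Krt5, Krt14, Krt6a and Dsp) rose by edgeR, and 5 by DESeq2. The other keratinocyte genes were not called by edgeR. Over all genes 2.28% rose by edgeR and 4.04% by DESeq2. Krt10 differed by 0.48 ± 0.26 (edgeR adjusted p 0.44) and Krt15 by −1.56 ± 1.23 (0.71). Krt1, Krtdap and Lor could not be estimated. Whether this RNA came from skin or from the tumour was not tested. The sum of the 9 was 1.29 to 5.77 CPM with EV and 1.57 to 2668 CPM with IL27v. It was high in 3 IL27v libraries, both of docetaxel (2465 and 2668 CPM) and anti-PD-L1 1 (567 CPM), and at most 22.04 CPM in the other 8. In those 3 libraries Cxcl5 was at 42.0, 14.9 and 2.47 CPM and Cxcl1 at 270, 246 and 26.7 CPM. In those other 8 libraries Cxcl5 reached 355 CPM and Cxcl1 273 CPM. The part of keratinocyte RNA in the rise was not tested.

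Along the chromosome 5 stretch the genes that rose lay at both ends, with Ppbp and Pf4 between them. Ppbp begins 9.2 kb and Cxcl3 26.7 kb after the start of Cxcl5. Its log2 fold change with IL27v was −0.02 ± 0.24 (edgeR adjusted p 1), and that of Pf4, a platelet chemokine also made by macrophages, was 0.09 ± 0.30 (edgeR adjusted p 1). Cxcl15, the lung chemokine, had no count in any of the 23 libraries.

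**Figure D3:**
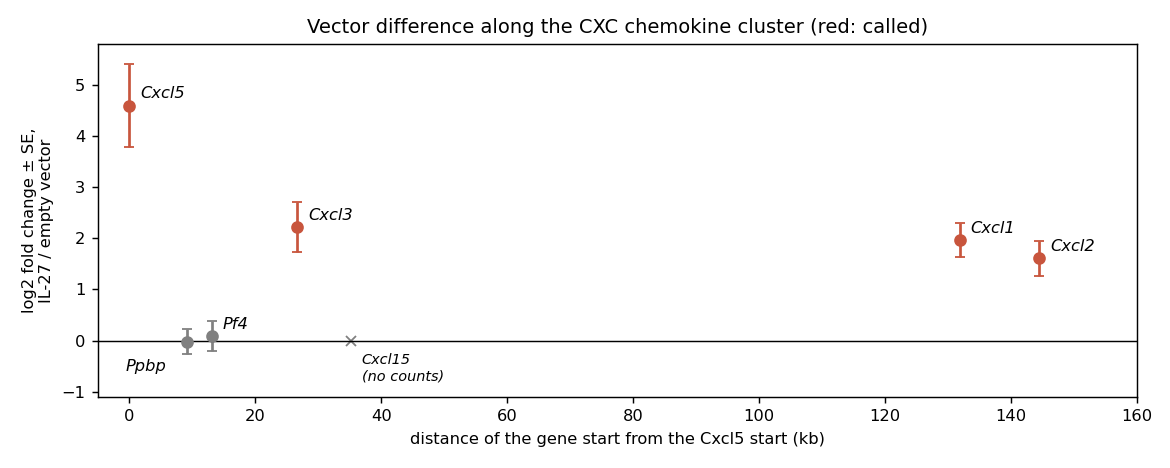
Log2 fold change of IL27v over EV (± SE, y axis) against the distance of each gene's start from the Cxcl5 start in kb (x axis) for the 7 genes of the stretch. Cxcl5, Cxcl3, Cxcl1 and Cxcl2 (red) passed the test, Ppbp and Pf4 (grey) lie near 0, and the cross marks Cxcl15, which had no counts.

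The 4 chemokines that rose were alike from library to library in some pairs and less so in others. Likeness was measured as Pearson's r of log2 CPM over the 23 libraries, among 13732 genes with a mean of at least 1 CPM, as a description. These libraries share vector, muscle content and scaling. The gene most like Cxcl2 was Cxcl3 (r 0.926 in all, 0.858 in the 12 EV and 0.925 in the 11 IL27v libraries), and the reverse held too. Cxcl1 came second for Cxcl2 (r 0.875), but that value was 0.408 among EV libraries and 0.921 among IL27v libraries. Cxcl1 was less like Cxcl3 (r 0.725 in all, 0.121 in EV, 0.808 in IL27v) and, within EV, little like Cxcl5 (r 0.834 in all, 0.344 in EV, 0.845 in IL27v).

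For Cxcl1 the 5 most like genes were H2-K1 (r 0.878), Cxcl2, H2-Q4, H2-Q7 and Mmp3. The H2 genes encode MHC class I chains with close copies of each other, so their counts may be split unevenly, and their r with Cxcl1 among EV libraries was 0.335 to 0.440. For Cxcl3 the others were Abcg1, a cholesterol exporter, Osm, a cytokine of myeloid cells, Slco2a1, a prostaglandin carrier, and Nlrp3, an inflammasome sensor, with r of 0.879 to 0.919. For Cxcl2 they were Abcg1, the stromelysin gene Mmp3 and the chemokine scavenger Ackr3. For Cxcl5 they were Il1rl1, the IL-33 receptor (r 0.943), Mmp3, Cyp1b1, Abi3bp and Adgrd1. With Spearman's rank correlation in place of Pearson's, 1 of the 5 remained for Cxcl1, 2 for Cxcl2, 1 for Cxcl3 and 4 for Cxcl5.

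**Figure D4:**
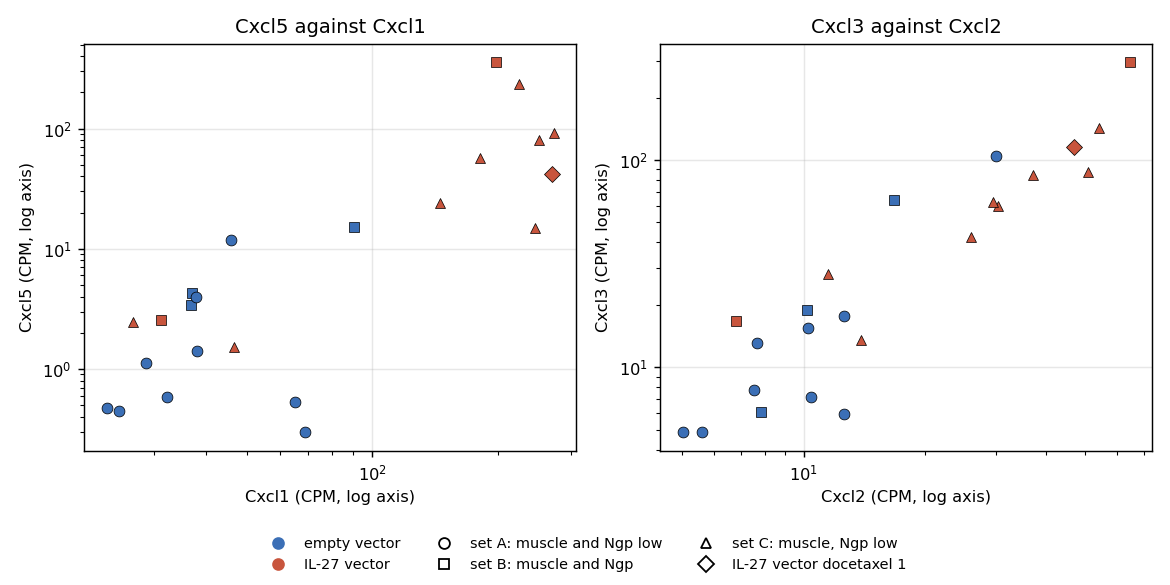
Cxcl5 against Cxcl1 (left) and Cxcl3 against Cxcl2 (right), in CPM on log axes, 1 point per library, coloured by vector and with a marker for the set. In the left panel the 2 EV docetaxel libraries have Cxcl1 at 65.4 and 69.0 CPM with the lower Cxcl5 levels of 0.536 and 0.298 CPM.

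Csf3 was low throughout. EV libraries held 0.963 and 1.05 CPM in media, 0.811 and 0.415 with cabozantinib, 2.42 and 7.51 with docetaxel, 0.603 and 0.755 with anti-PD-L1, 1.51 and 0.725 with cabozantinib and IL-27, and 3.66 and 0.693 with IL-27. IL27v libraries held 0.268 and 6.57 CPM in media, 0 and 4.17 with cabozantinib, 7.83 and 4.83 with docetaxel, 0.697 and 1.80 with anti-PD-L1, 8.47 and 4.75 with cabozantinib and IL-27, and 7.72 with IL-27. Overlap was wide, and 3 of 11 IL27v libraries were above the highest EV library. The log2 fold change with IL27v was 1.52 ± 0.61 (SE), with an unadjusted p of 0.024 and an edgeR adjusted p of 0.23. Without IL27v cabozantinib 2 that group held no Csf3 count, so the −0.17 given by that fit is not a reliable estimate. The genes most like Csf3 were Procr, the protein C receptor (r 0.819), Gm5424, the tubulin gene Tubb2a, Rnf19b and Socs3, a brake on cytokine signalling, of which 1 of 5 remained with ranks.

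Cxcr2 transcript was hardly detected. It was at 0 in 6 of 23 libraries, between 0.0462 and 1.18 CPM in the 10 EV libraries that held it, and at most 2.69 CPM, or 168 counts, in IL27v docetaxel 2. IL27v libraries held 0.758 and 0.284 CPM in media, 0.0560 and 0.436 with cabozantinib, 0.138 and 2.69 with docetaxel, 0.155 and 0 with anti-PD-L1, and 0 in all 3 libraries with IL-27 or cabozantinib and IL-27. With groups at 0, the mean vector effect could not be estimated by edgeR, and it was −1.03 ± 0.86 by DESeq2 (adjusted p 0.54). Single conditions went in opposite directions: in docetaxel both EV libraries were at 0, and in cabozantinib with IL-27 both IL27v libraries were at 0 against 1.18 and 0.391 CPM with EV. DESeq2 called both differences (adjusted p 0.0034 and 0.015) and edgeR neither (adjusted p 0.16 and 0.32). Of 33123 genes with any count, DESeq2 called 2.71% in docetaxel and 1.3% in cabozantinib with IL-27. IL27v docetaxel 1 and 2 held 5 and 168 Cxcr2 counts, so the docetaxel difference rests mostly on 1 library. The second receptor gene, Cxcr1, had 1 count in 1 library.

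Neutrophil markers ranged from sparse to clearly present. Ngp was at 0 in 16 libraries, the primary granule genes Mpo and Elane at 0 in 18 each, Retnlg at 0 in 16, and the surface marker Ly6g reached 1.11 CPM. The secreted Lcn2 and the metalloproteinase gene Mmp9 were found in all 23 libraries, with Mmp9 at 11.1 CPM with EV and 14.3 CPM with IL27v on average, and Mmp8 in 22 libraries, up to 28.4 CPM. These genes are made by other cells as well. Of the 12 neutrophil markers, 0 were called for the vector by edgeR, 5 had an unadjusted p under 0.05, and DESeq2 called 3 higher and 2 lower. Over all genes, edgeR called 2.95%, and 14.5% had an unadjusted p under 0.05. Of 33123 genes with any count, DESeq2 called 1338 higher and 787 lower. With groups at 0, no fold change could be estimated for 6 of the 12 (Ngp, Camp, Ltf, Mpo, Elane and Retnlg), and the median of the other 6 was 1.38. Of these 6, Ly6g was −3.17 ± 1.11 (edgeR adjusted p 0.16) and S100a9 was 3.22 ± 0.85 (edgeR adjusted p 0.053). The summed level of the 12 was 7.33 to 70.9 CPM with EV and 3.61 to 304 CPM with IL27v. The 2 highest sums, 245 and 304 CPM, were in the IL27v docetaxel libraries, which also held 2465 and 2668 CPM of 9 keratinocyte genes against at most 567 CPM elsewhere. Of these markers S100a8 and S100a9 are also made by keratinocytes.

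The wider set of 25 neutrophil recruitment genes gives the cytokines and adhesion molecules around these chemokines. Of 22 tested, 3 rose with IL27v and 0 fell by edgeR (10 and 0 by DESeq2), and 15 had an unadjusted p under 0.05. Over all genes these shares were 2.28% higher by edgeR, 4.04% higher by DESeq2 and 14.5% at an unadjusted p under 0.05, and the median log2 fold change of the 22 was 0.73. Il1b, the inflammasome cytokine IL-1β, rose by 1.65 ± 0.40 (edgeR adjusted p 0.035), from 4.86 ± 3.74 to 15.7 ± 15.7 CPM (SD, n = 12 and 11). Il6 rose by 2.96 ± 0.65 (edgeR adjusted p 0.020) and Csf2, which encodes GM-CSF, by 1.35 ± 0.29 (edgeR adjusted p 0.019). The next by p did not pass: Icam1, an endothelial and leukocyte adhesion molecule, differed by 1.64 ± 0.43 (edgeR adjusted p 0.051), and Il1a by 1.41 ± 0.43 (0.095). Il17a, which induces these chemokines in many epithelia, had no count in any library.

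Against media, no chemokine and not Csf3 was called under the other 5 ex vivo conditions by edgeR. Of 30 tests (6 genes in 5 conditions, each averaged over the vectors), 0 were called, the lowest adjusted p was 0.34, and 2 had an unadjusted p under 0.05, both for Ppbp. DESeq2 called those 2. The 5 comparisons share the media libraries. The share of all genes that edgeR called either way was 0% for cabozantinib, anti-PD-L1 and IL-27, 0.00409% for cabozantinib with IL-27 and 1.79% for docetaxel. At an unadjusted p under 0.05 it was 10.5% for cabozantinib and 4.47% for cabozantinib with IL-27. It was 15.3% for docetaxel, 5.85% for anti-PD-L1 and 11.9% for IL-27. The share that DESeq2 called in these comparisons is not given here. Docetaxel had log2 differences of 1.05 ± 0.55 for Cxcl1 (edgeR adjusted p 0.37) and 1.59 ± 1.04 for Csf3 (edgeR adjusted p 0.46). Whether an exposure differed between the vectors was tested for the same 30 pairs: 0 were called by edgeR, the lowest adjusted p was 0.65, 1 had an unadjusted p under 0.05 (Cxcl3 with anti-PD-L1), and DESeq2 called none. The share of all genes that edgeR called in those tests was 0.0205% for cabozantinib and for docetaxel, 1.46% for cabozantinib with IL-27 and 0% for anti-PD-L1 and IL-27. At an unadjusted p under 0.05 the share for anti-PD-L1 was 7.62%.

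Ppbp, the platelet and myeloid chemokine, was lower in the libraries with cabozantinib than in those of media and IL-27, under both vectors. EV libraries held 35.9 and 28.6 CPM in media, 21.7 and 16.1 with cabozantinib, 26.1 and 23.3 with docetaxel, 41.8 and 68.2 with anti-PD-L1, 8.25 and 3.32 with cabozantinib and IL-27, and 24.9 and 53.6 with IL-27. IL27v libraries held 45.5 and 50.5 CPM in media, 4.60 and 13.8 with cabozantinib, 15.6 and 50.6 with docetaxel, 21.2 and 32.1 with anti-PD-L1, 8.94 and 12.01 with cabozantinib and IL-27, and 41.7 with IL-27. The 8 libraries with cabozantinib lay between 3.32 and 21.7 CPM and did not overlap with the 7 in media or IL-27 alone, at 24.9 to 53.6 CPM. They did overlap with the docetaxel and anti-PD-L1 libraries, through IL27v docetaxel 1 and IL27v anti-PD-L1 1. Cabozantinib was partly confounded with the library sets. The EV cabozantinib with IL-27 libraries were in set B, and those of EV media and IL-27 in set A. The IL27v libraries with cabozantinib were in set C, and those of IL27v media in set B. Within set A, EV cabozantinib (21.7 and 16.1 CPM) was below EV media and IL-27 (24.9 to 53.6 CPM). Within set C the only library of media or IL-27 was IL27v IL-27, at 41.7 CPM.

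**Figure D5:**
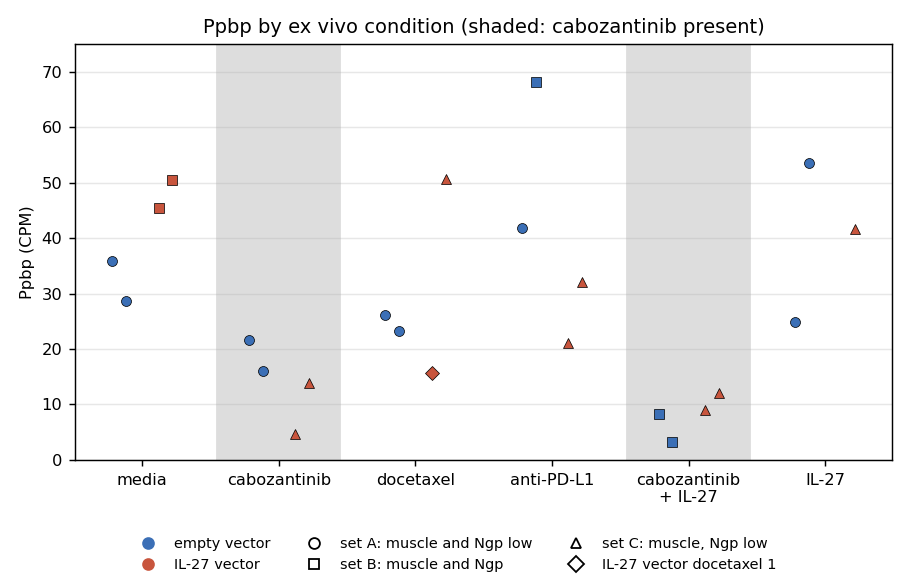
Ppbp in CPM (linear axis) in each of the 23 libraries by ex vivo condition, with the 2 conditions that contain cabozantinib shaded, coloured by vector and with a marker for the set. Medians were 10.5 CPM in the 8 shaded libraries and 41.7 CPM in the 7 libraries of media and IL-27.

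Neither comparison of cabozantinib with media passed for Ppbp. The log2 difference was −1.58 ± 0.42 for cabozantinib (edgeR adjusted p 0.34) and −2.34 ± 0.43 for cabozantinib with IL-27 (edgeR adjusted p 0.53). A comparison added after these levels were seen set all 8 cabozantinib libraries against the 7 of media and IL-27. It gave −1.98 ± 0.31 (edgeR adjusted p 0.083), the second lowest p of 24440 genes, of which 1 (0.00409%) was called. The difference was −1.77 ± 0.42 under EV and −2.19 ± 0.45 under IL27v, with edgeR adjusted p of 0.42 and 0.40. The call depended on the tool and on single libraries: DESeq2's adjusted p was 4.1e-06, and edgeR's was 0.013 without EV IL-27 1 and 0.037 without IL27v docetaxel 1.

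Markers of platelets and macrophages, which can make Ppbp, were read in the same comparison, and their part in the result was not tested. Of 7 megakaryocyte and platelet genes, Gp6, Gp9, Gp5 and Treml1 were at 0 in 23, 21, 18 and 10 libraries and Gp1bb reached 1.49 CPM. Itga2b was found in all 23, up to 15.4 CPM, with a log2 difference of 0.25 ± 0.42 (edgeR adjusted p 1). Pf4 overlapped widely, at 14.0 to 127 CPM with cabozantinib and 10.4 to 150 CPM in media or IL-27, and its log2 difference was −0.63 ± 0.37 (edgeR adjusted p 1). Of 10 macrophage markers, 0 were called by edgeR for cabozantinib, 1 had an unadjusted p under 0.05, DESeq2 called 0, and the median log2 difference was −0.04. Over all genes 3.92% had an unadjusted p under 0.05 by edgeR. Cxcl3 had a difference of −1.45 ± 0.60 in the same comparison (unadjusted p 0.027, edgeR adjusted p 1). The genes most like Ppbp were Igfbp3, which binds insulin-like growth factors (r 0.724), the collagenase gene Mmp13, 2010005H15Rik, the macrophage elastase gene Mmp12 and the chemokine gene Ccl12, of which 1 of 5 remained with ranks.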

How the data were processed

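RNA was measured in 23 bulk libraries of stranded poly(A) RNA, sequenced in pairs, from RNA of integrity number 8 or more, per the labels' protocols. The authors deposited estimated counts per gene, as whole numbers; the tools named in the submitters' processing notes are HISAT2, StringTie, cutadapt and DESeq2, and the build is GRCm38, while versions, settings, strand use and the counting step are not stated there. The deposited values are not plain read counts: 143 genes hold the same nonzero value in every library, and 31.7 to 35.3% of counts from 1 to 40 are multiples of 4. Groups came from the sample titles. Of 55401 identifiers, 55141 had a symbol in the gene name table, and positions and lengths came from GENCODE (GRCm38).

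Counts were fitted in R 4.3.3 with edgeR 4.0.16 (TMM scaling, filterByExpr by group, quasi-likelihood test) in 1 model of 12 group means with 11 residual degrees of freedom, on 24440 genes. Benjamini-Hochberg adjustment ran over all of them, and a gene was called at an adjusted p under 0.05. The difference between vectors was averaged over the 6 ex vivo conditions. Standard errors are the log2 fold change over the square root of F. Alternatives included DESeq2 1.42.0 and leaving out each library in turn. On data simulated for the vector effect with 21010 genes, the fit called 49 of 50 genes raised and 46 of 50 lowered by 2 on the log2 scale, all 50 each at 3, and 6 of 20810 unchanged genes. The simulated libraries were independent, with 1 spread for all genes, no differences in muscle content and changed genes only at 1 CPM or more. It therefore checks the code and does not give the error rate in the real libraries. All 7 genes of the set, the lists (25 neutrophil recruitment genes with up to 8 named, and cell-type markers), the motifs and the 5 genes most like each one were chosen with earlier results of these data known. The results of 2 marker genes are not reported here.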

Additional observations from a re-analysis of the deposited data

How the results depend on the processing

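The 4 calls for the vector effect (Cxcl1, Cxcl2, Cxcl3 and Cxcl5) were also made with RLE size factors, a filter of 1 CPM in 4 libraries, counts divided by 4, an additive model, DESeq2 and a GC correction added after seeing the data. Whether replicate numbers pair the samples is not known. Deviations from the group mean correlated above 0.1 in 9 of 55 pairs of groups (median r 0.014). A correlation over all tested genes cannot exclude pairing. With a replicate block the 4 genes were called too, at log2 fold changes of 1.79, 1.48, 2.07 and 4.33, and 569 genes in all. Genes of the set called for the vector effect numbered 0 with the muscle term, 0 with the library sets and, added after seeing the data, 3 without the 5 libraries with Ngp (Cxcl2, adjusted p 0.052). All genes called for it numbered 722, and 1631 with no filter, 2125 with DESeq2, 2 with the muscle term, 0 with the sets and 285 without those 5 libraries. With no filter, genes of the set called for the vector numbered 4 in media, 3 in cabozantinib, 5 in docetaxel, 2 in anti-PD-L1, 5 in cabozantinib with IL-27 and 2 in IL-27, against 0 with the filter, with Cxcr2 among the 5 in both, and Csf3 was called for the mean vector effect. With no filter the exposures against media had 2 for cabozantinib, 3 for docetaxel, 1 for anti-PD-L1, 3 for cabozantinib with IL-27 and 1 for IL-27. The interactions then had 2 each for cabozantinib, anti-PD-L1, cabozantinib with IL-27 and IL-27, and the added cabozantinib comparison had 2. The share of all genes called with no filter in these comparisons is not given here, so the counts cannot be set against it. Standard errors were smaller with no filter: that of Cxcl5 for the mean vector effect was 0.20, against 0.82 with the filter. DESeq2 called 2 genes of the set in media (Cxcl3 and Cxcl5), 3 in docetaxel (Cxcl3, Cxcl5 and Cxcr2) and 1 in cabozantinib with IL-27 (Cxcr2) for the vector, 1 for each exposure with cabozantinib, 1 for the cabozantinib with IL-27 interaction (Cxcr2) and 1 for the added comparison. For the exposures, the interaction and the added comparison, the share of all genes that DESeq2 called is not given here. The log2 fold change of Ppbp with IL27v, −0.02, was 0.53 with the library sets and 0.0302 with the GC correction. The cause was not tested.

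With each library left out in turn, 3 to 4 genes of the set were called for the vector effect, and 0 to 1 for the added cabozantinib comparison. The log2 fold changes with IL27v were 1.65 to 2.10 for Cxcl1, 1.21 to 1.83 for Cxcl2, 1.68 to 2.59 for Cxcl3, 3.57 to 5.21 for Cxcl5, −0.20 to 0.11 for Ppbp and −0.17 to 1.76 for Csf3. The lowest value for Csf3 is not reliable, since the fit without IL27v cabozantinib 2 left that group with no count. In media they were −0.17 to 2.34 for Cxcl1 and −0.41 to 2.69 for Cxcl2, with cabozantinib −0.75 to 4.70 for Cxcl5, and with anti-PD-L1 −0.20 to 2.24 for Cxcl1, −0.0757 to 1.48 for Cxcl2 and −0.54 to 2.50 for Cxcl3. All genes called for the vector effect numbered 394 to 1244. The count moved by over 1.5 times without EV media 1 (457) or 2 (481), EV cabozantinib 2 (471), EV cabozantinib with IL-27 1 (394) or 2 (462), EV IL-27 2 (1244), IL27v cabozantinib 2 (447) or IL27v cabozantinib with IL-27 1 (434). Of the 5 genes most like each chemokine or Csf3, a prior count of 0.5 in place of 2 kept 5, except 3 for Csf3. The highest counts of Cxcr2 and Csf3 were 168 and 656. With counts divided by 4 the log2 fold change of Csf3 was 1.53 (adjusted p 0.15).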
